A study of Mus musculus with 9 samples.

Results

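The genes described here encode respiratory complex I (NADH:ubiquinone oxidoreductase) in mouse ventricles under chronic adrenergic stimulation. They were taken by name, as every symbol that starts with Nduf followed by a, ab, b, c, s or v and a number, with assembly factors (Ndufaf) left out. Described here are 37 of the 15149 genes counted in all 9 hearts. Of these, 6 encode nuclear core subunits, 29 encode accessory subunits and 2 (Ndufa4 and Ndufa4l2) carry the name without being kept here among the 35 subunits, since Ndufa4 is counted with cytochrome c oxidase in later structural work. Ndufb1 and the 7 core subunits encoded by mitochondrial DNA were not analysed here.

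All mice were wild-type C57Bl6N, aged 2 to 3 months by the labels, and both sexes were used. The Ctr group (2 females, 1 male) was taken before treatment, and no pump or vehicle is named for it. The ISO group (1 female, 2 males) received isoprenaline, a beta-adrenoceptor agonist, at 30 mg/kg/day for 96 h by osmotic minipump. The ISO/PE group (1 female, 2 males) received the same isoprenaline with phenylephrine, an alpha1-adrenoceptor agonist, at 30 mg/kg/day. Drug, pump and elapsed time cannot be told apart in either comparison with Ctr, and the sexes are not balanced between groups. Each library is polyA RNA of pulverised right and left ventricles, labelled with 1 animal, with 10172248 to 14477054 counts over 1 transcript per gene. No pair of hearts within a group had counts that agree within sampling noise (chi-square per degree of freedom 7.23 to 22.3), so none was treated as 1 library deposited again.

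Complex I takes electrons from NADH, passes them through a flavin and a chain of iron-sulfur clusters to ubiquinone, and pumps protons across the mitochondrial inner membrane. Its N module binds NADH, its Q module reduces ubiquinone, and its membrane arm, here split into a proximal and a distal part, moves the protons. Core subunits carry out catalysis and are conserved from bacteria, whereas accessory subunits surround them and are needed for assembly and stability. The heart depends on oxidative phosphorylation and is rich in this complex.

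The subunit genes are spread over 15 chromosomes, with Ndufa1 and Ndufb11 on the X chromosome. A promoter window of 250 bases before to 50 bases after the transcript start (RefSeq, GRCm38.p6) was at hand for 32 of the 35 subunits. The 5 windows printed below were chosen because they belong to a pair of core subunits (Ndufs3 and Ndufv1), a pair of accessory subunits among the 5 with the largest decrease under ISO/PE (Ndufs4 and Ndufa3), and Ndufab1, whose value under ISO/PE was the nearest to Ctr. Capitals mark every match, on either strand, to 9 motifs searched. The windows lie at chr2:90904672-90904971, chr19:4012706-4013005 and chr13:114388045-114388344 on the minus strand, at chr7:3617123-3617422 on the plus strand and, for Ndufab1, at chr7:122101799-122102098 on the minus strand.
Ndufs3: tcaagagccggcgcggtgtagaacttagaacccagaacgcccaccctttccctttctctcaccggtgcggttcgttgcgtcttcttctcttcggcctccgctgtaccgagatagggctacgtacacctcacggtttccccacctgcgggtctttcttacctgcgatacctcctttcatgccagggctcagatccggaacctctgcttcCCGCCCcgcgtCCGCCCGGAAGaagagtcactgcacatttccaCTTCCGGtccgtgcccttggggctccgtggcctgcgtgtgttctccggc
Ndufv1: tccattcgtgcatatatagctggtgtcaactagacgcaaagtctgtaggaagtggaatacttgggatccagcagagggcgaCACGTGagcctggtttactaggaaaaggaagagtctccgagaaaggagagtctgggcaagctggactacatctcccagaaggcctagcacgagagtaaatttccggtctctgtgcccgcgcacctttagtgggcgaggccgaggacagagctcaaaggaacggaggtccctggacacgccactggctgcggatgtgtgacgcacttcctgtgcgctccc
Ndufs4: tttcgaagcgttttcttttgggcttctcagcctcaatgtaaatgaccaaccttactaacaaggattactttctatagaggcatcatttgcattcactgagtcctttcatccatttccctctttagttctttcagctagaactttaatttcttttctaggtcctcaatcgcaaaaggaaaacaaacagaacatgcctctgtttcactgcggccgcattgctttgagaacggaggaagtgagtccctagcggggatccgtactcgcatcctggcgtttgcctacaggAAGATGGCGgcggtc
Ndufa3: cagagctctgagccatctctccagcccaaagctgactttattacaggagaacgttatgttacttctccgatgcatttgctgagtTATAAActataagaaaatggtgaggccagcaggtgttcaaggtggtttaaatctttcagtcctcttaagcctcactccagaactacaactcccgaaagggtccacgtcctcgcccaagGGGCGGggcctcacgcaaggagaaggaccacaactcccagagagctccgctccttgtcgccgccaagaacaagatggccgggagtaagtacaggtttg
Ndufab1: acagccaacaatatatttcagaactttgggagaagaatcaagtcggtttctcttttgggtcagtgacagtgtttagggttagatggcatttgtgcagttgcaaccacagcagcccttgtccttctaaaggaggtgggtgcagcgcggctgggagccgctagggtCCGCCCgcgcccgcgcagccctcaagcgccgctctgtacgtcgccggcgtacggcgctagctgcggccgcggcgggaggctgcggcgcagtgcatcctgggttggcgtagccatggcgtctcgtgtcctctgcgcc

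The Ndufs3 window holds the ETS/GABP motif CCGGAAG 27 bases before the start, GC boxes (GGGCGG) on the other strand 42 and 31 bases before it, the nearer one overlapping with the ETS/GABP match, and CCGGAAG again on the other strand from base 2. The Ndufv1 window holds an E-box (CACGTG) 169 bases before the start. The Ndufs4 window holds the YY1 motif AAGATGGCG from base 36 after the start. The windows of Ndufa3 and Ndufab1 hold a GC box 48 and 86 bases before the start, and that of Ndufa3 also a TATAAA 166 bases before it. These matches are letters in a window and not known binding sites. Shares are per gene, and a gene with several starts was searched in all its windows (35 for the 32 subunits, 32851 for 27025 genes). AAGATGGCG occurred in 5 of the 32 subunits (15.6%, namely Ndufa9, Ndufc1, Ndufs4, Ndufs6 and Ndufs7) and in 1.64% of the 27025 genes. The NRF1 motif GCGCATGC occurred in 3 of 32 (9.38%, against 3.05% of all genes), the ERR half-site AAGGTCA in 3 (9.38% against 5.38%) and the CRE TGACGTCA in 3 (9.38% against 2.03%). CCGGAAG was found in 12.5% against 9.93%, GGGCGG in 46.9% against 38.2%, CACGTG in 6.25% against 8.09%, CCAAT in 31.2% against 41.1% and TATAAA in 12.5% against 15.7%. The median GC content was 59.3% over the subunit windows and 52.7% over all windows.

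In Ctr hearts, the subunit transcripts were abundant but uneven. Per kilobase of transcript, the median level over the 35 subunits was 405 RPKM, with medians of 365 RPKM for the core and 405 RPKM for the accessory subunits. By the deposited transcript lengths, Ndufa3 was highest at 1332 ± 154 RPKM (SD, n = 3). Ndufb9 at 1223 ± 47.4 and Ndufb8 at 1200 ± 17.97 came next and differ from each other by less than their spread. The length used for Ndufa3 is 345 bases, although its exons in the GENCODE annotation add up to 515 bases, so its rank is uncertain. Ndufab1, the mitochondrial acyl carrier protein, was lowest at 7.85 ± 1.05 RPKM, below Ndufs5 at 50.02 ± 3.02 and Ndufb4 at 77.2 ± 9.09.

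These low levels come with a limit of short reads. Of the 35 subunits, 8 have a transcript copy elsewhere in the genome that is at least 95% identical over at least 150 bases. All of these copies are processed pseudogenes in the GENCODE annotation. By the deposited lengths, the 5 subunits with the lowest Ctr levels (Ndufab1, Ndufs5, Ndufb4, Ndufb3 and Ndufa12) are all among these 8. Ndufab1 matches Gm4459 at 99.8% over 468 bases and Ndufab1-ps at 99.4% over 469 bases. Ndufb4 matches Ndufb4c at 100% over 390 bases, and Ndufs5 matches BC002163 at 99.4% over 319 bases. The others are Ndufs3 (98.6% over 792 bases), Ndufa12, Ndufb11 and Ndufs6. How reads that fit both copies were treated is not given in the sources used here, so the levels and changes of these 8 genes are uncertain. A further limit is that counting ignored strand while 9 subunits share at least 10% of their exon bases with another gene, most of all Ndufb2 (50.3%, with Gm42420 and Gm16272), Ndufb6 (39.0%, with Smim27) and Ndufa13 (30.0%, with Tssk6). The RPKM of Ndufa11 rests on a length of 2655 bases in the deposited table, although its GENCODE exons add up to 545 bases. Lengths of other subunits differ as well. Ndufa12 has 1019 bases in the deposited table and 566 in GENCODE, and Ndufs4, which has no such copy, has 1527 and 1698. Ranks by RPKM, and which subunits are the 5 lowest, thus depend on the lengths used.

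**Figure D1:**
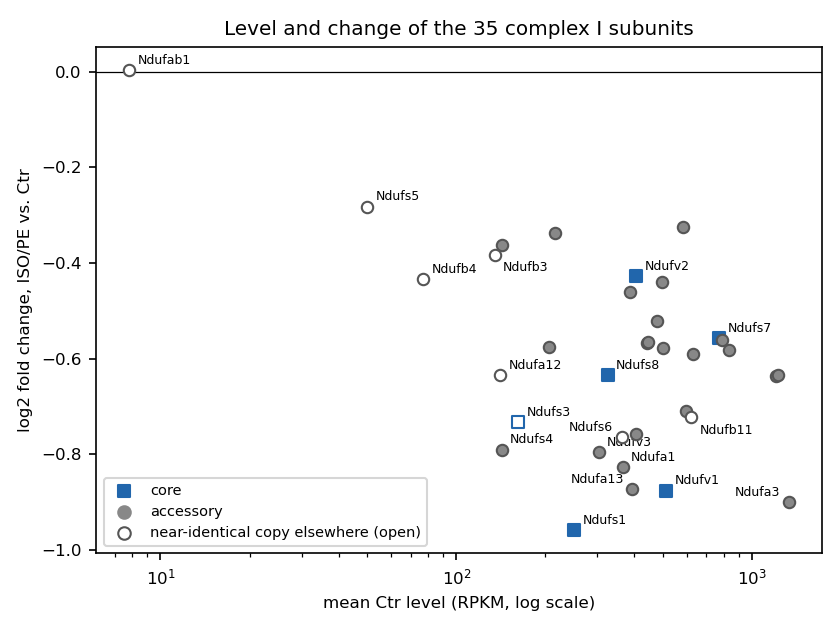
Mean Ctr level of each of the 35 complex I subunits (x axis, RPKM, log scale) against its log2 fold change for ISO/PE vs. Ctr (y axis). Squares are core and circles accessory subunits, and open symbols have a near-identical copy elsewhere. Among these is Ndufab1, the lowest at 7.85 RPKM and, for the transcript used, the only one without a decrease.

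ISO/PE vs. Ctr addressed what combined beta- and alpha1-adrenergic stimulation changed. Transcripts of nearly all of the 35 nuclear subunits described here were lower relative to the other genes, although not when scaled to cardiomyocyte markers (subunit median 0.13). At an adjusted p under 0.05 (edgeR quasi-likelihood test, Benjamini-Hochberg over 14426 genes), 34 of 35 subunits fell, where 22.7% of all genes tested did, and 16 of 35 also passed a log2 fold change of 0.6, where 10.1% of all genes did. None rose (24.4% of all genes did), neither at an unadjusted p under 0.05 nor by DESeq2 or limma-voom. The 3 ISO/PE hearts lay below all 3 Ctr hearts for 34 subunits, against 27.8% of all genes. The median log2 fold change over the subunits was -0.58, beside -0.01 over all genes, and the median subunit was at 66.9% of its Ctr level. In single subunits, the ISO/PE level ranged from 51.4% to 100.4% of Ctr, and 29 of the 35 were under 75%.

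The lower levels came with lower levels of cardiomyocyte transcripts. Of 18 cardiomyocyte markers, 12 fell and none rose for ISO/PE vs. Ctr, with a median of -0.59. In this comparison 22.7% of all genes tested fell and 24.4% rose, which are the shares to set beside each marker list. Their summed level was 82496 to 91947 CPM in Ctr, 65595 to 73482 in ISO and 42401 to 58898 in ISO/PE hearts, and none of the 18 was at 0 in any heart. Among them, Myom2 was at -2.01, Myh6 at -1.45, Myl2 at -1.41 and Tnni3 at -1.17. Actn2 was at 0.08, Actc1 at -0.01, Ryr2 at -0.13 and Ttn at -0.45, none of which passed the test. At the same time, 9 of 10 macrophage and monocyte markers rose (summed level 747 to 936 CPM in Ctr, 2465 to 3297 in ISO/PE), and of 10 fibroblast markers 6 rose and 1 fell (5603 to 6393 CPM in Ctr, 17137 to 22436 in ISO/PE). Of 8 endothelial markers 7 fell and none rose, with a median of -0.37 (1738 to 2053 CPM in Ctr, 1548 to 1599 in ISO/PE). Of 8 smooth muscle and pericyte markers 3 fell and 2 rose, with a median of -0.03 (1826 to 1934 CPM in Ctr, 1574 to 1750 in ISO/PE). The count that rose was near the share of all genes, and the count that fell was not far above it. Among lymphocyte markers, the B cell genes Cd79a, Cd79b and Ms4a1 fell (log2 fold changes of -1.67, -0.68 and -1.72) and Cd4 rose (0.74). None of the markers described here was at 0 in any heart. The part of these other cell types in the subunit levels was not tested. Scaled to the cardiomyocyte markers, the subunit median was 0.13, that of all genes 0.72, and 1 subunit was lower and 7 were higher at an adjusted p under 0.05. That scaling uses the mean log2 count of the 18 markers, so those that fell furthest pull it down. The marker median of -0.59 was close to the subunit median of -0.58. The subunits were thus lower relative to the other genes of the ventricle, and not relative to these markers. The paper reports Ryr2 and Ttn as unchanged against control and takes this as no substantial shift in the cardiomyocyte share. It also cites a high overlap with enriched terms from isolated cardiomyocytes after aortic constriction. In such bulk samples, fewer cardiomyocytes and less complex I mRNA per cardiomyocyte cannot be told apart.

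**Figure D2:**
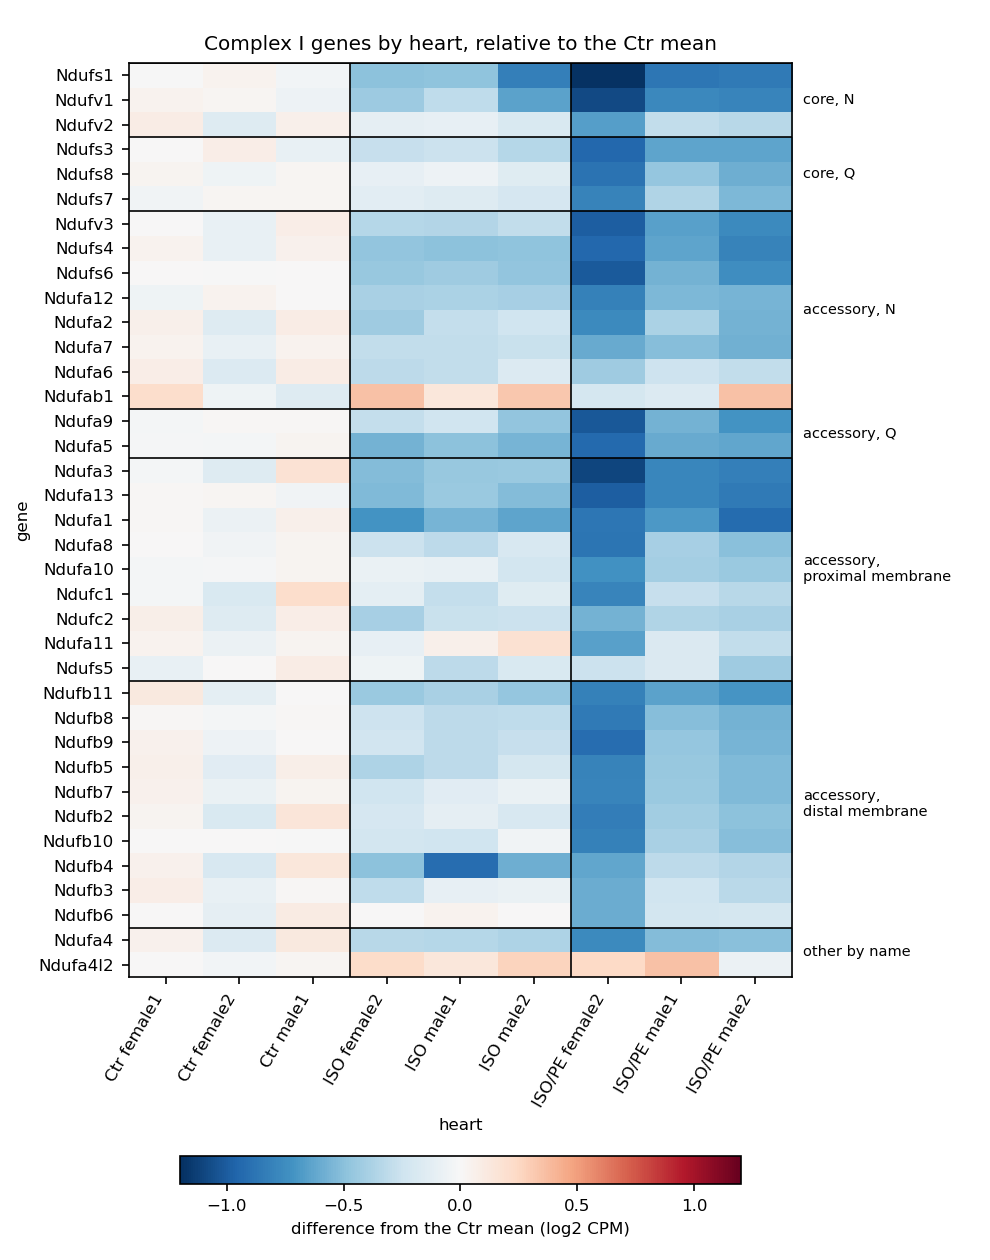
Difference of each of the 37 genes from its Ctr mean (colour, log2 CPM, blue lower) in each heart (columns), by class and module (rows, sorted by the fold change for ISO/PE vs. Ctr). Blue deepens from Ctr to ISO to ISO/PE in most rows, with ISO/PE female2 the lowest heart for 32 of the 35 subunits. Scaled to cardiomyocyte markers the subunit median for ISO/PE vs. Ctr is 0.13.

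The 6 nuclear core subunits described here were all lower under ISO/PE, with a median of -0.68 (0.03 when scaled to cardiomyocyte markers) and 4 past both thresholds. Values per heart are given in CPM (read counts scaled to library size) in the order female1, female2, male1 for Ctr and female2, male1, male2 for ISO and ISO/PE. In the N module, Ndufs1, the large iron-sulfur subunit (75 kDa protein) encoded at chr1:63143596-63176833 (mm10, minus strand), had 724, 751 and 710 CPM in Ctr, 518, 520 and 412 in ISO and 320, 400 and 403 in ISO/PE hearts. The groups did not overlap, and ISO male2 lay nearer to the ISO/PE hearts than to the other ISO hearts. The log2 fold change was -0.96 for ISO/PE vs. Ctr (SE 0.12, adjusted p = 7.46e-05), the largest of the 35. Of its exon bases, 9.32% lie in the lincRNA gene Ino80dos on the other strand, which was at -0.97 in the same comparison, and without strand the reads of that stretch cannot be assigned to either gene.

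Ndufv1, which binds NADH and the flavin, was at 839, 829 and 780 CPM in Ctr, 603, 660 and 524 in ISO and 384, 478 and 472 in ISO/PE hearts. Again every ISO heart lay between the Ctr and the ISO/PE hearts. The log2 fold change was -0.88 (SE 0.12, adjusted p = 1.04e-04). Ndufv2, the iron-sulfur partner of Ndufv1, was at 658, 555 and 644 CPM in Ctr, 572, 577 and 544 in ISO and 390, 502 and 490 in ISO/PE hearts. It changed least of the core subunits (-0.43, SE 0.11, adjusted p = 0.00889), and its Ctr and ISO hearts overlapped.

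In the Q module, Ndufs3, whose promoter is printed above and which has a near-identical copy, was at 152, 161 and 143 CPM in Ctr, 125, 127 and 120 in ISO and 78.9, 97.8 and 98.01 in ISO/PE hearts (-0.73, SE 0.10, adjusted p = 9.96e-05). The 3 groups were fully separated.

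Ndufs7 carries the last iron-sulfur cluster before ubiquinone. It was at 564, 590 and 592 CPM in Ctr, 531, 521 and 507 in ISO and 333, 454 and 399 in ISO/PE hearts (-0.56, SE 0.11, adjusted p = 0.00154). Ndufs8, with a pair of iron-sulfur clusters, was at 339, 319 and 336 CPM in Ctr, 309, 316 and 299 in ISO and 179, 240 and 221 in ISO/PE hearts (-0.63, SE 0.11, adjusted p = 5.31e-04). For both, the ISO hearts lay below the Ctr hearts by a small margin and the ISO/PE hearts further below.

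Of the 29 accessory subunits, 28 were lower under ISO/PE (median -0.58, and 0.13 when scaled to cardiomyocyte markers) and 12 passed both thresholds. The largest decrease was that of Ndufa3 of the proximal membrane arm, at 450, 412 and 517 CPM in Ctr, 319, 333 and 335 in ISO and 214, 266 and 259 in ISO/PE hearts (-0.90, SE 0.11, adjusted p = 6.70e-05). Ndufa13, also known as GRIM-19, was at 501, 504 and 482 CPM in Ctr, 344, 365 and 346 in ISO and 249, 288 and 275 in ISO/PE hearts (-0.87, SE 0.08, adjusted p = 1.54e-05). Both genes were ordered Ctr, ISO, ISO/PE without overlap.

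Ndufa1, a small X-linked membrane subunit, was at 180, 169 and 186 CPM in Ctr, 108, 121 and 115 in ISO and 97.3, 110 and 93.7 in ISO/PE hearts (-0.83, SE 0.09, adjusted p = 2.35e-05). Most of its decrease was present in ISO hearts, which overlapped with the ISO/PE hearts. Ndufv3, a small N-module subunit, was at 479, 447 and 504 CPM in Ctr, 374, 373 and 388 in ISO and 240, 303 and 281 in ISO/PE hearts (-0.80, SE 0.10, adjusted p = 7.41e-05). Ndufs4, whose loss causes a Leigh-like disease in mice, was at 224, 204 and 224 CPM in Ctr, 156, 154 and 155 in ISO and 113, 140 and 124 in ISO/PE hearts (-0.79, SE 0.09, adjusted p = 4.35e-05). The ISO hearts of both genes were close to each other and apart from both other groups.

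**Figure D3:**
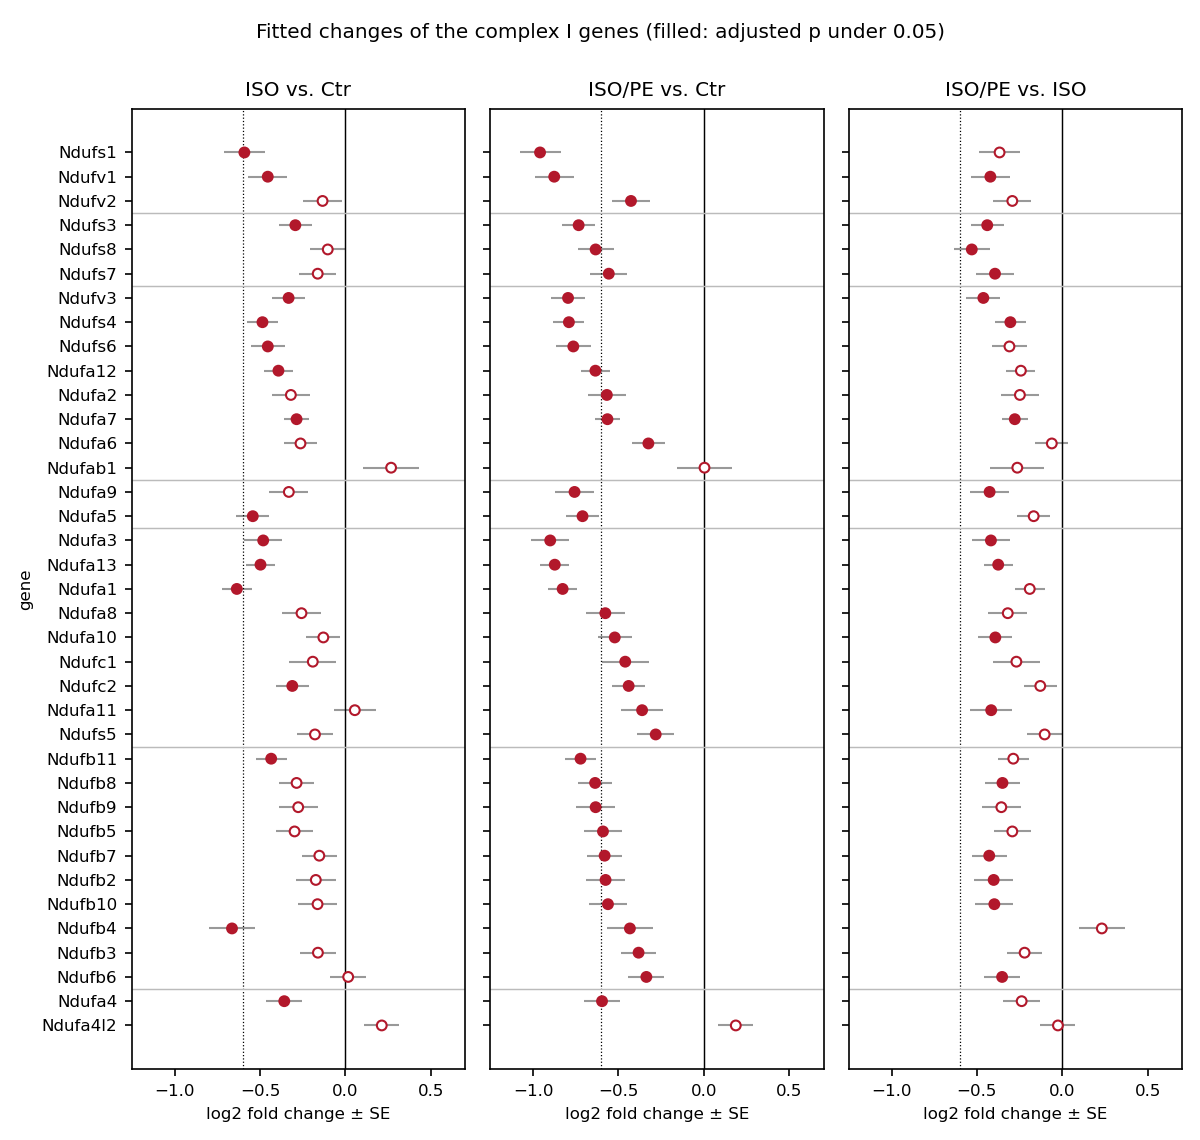
Log2 fold change ± SE from the edgeR fit (x axis) of each of the 37 genes (y axis) for the 3 comparisons, filled where the adjusted p is under 0.05, with a dotted line at -0.6. For ISO/PE vs. Ctr only Ndufab1 and Ndufa4l2 are open, while many symbols are open in the other panels. Scaled to cardiomyocyte markers, most of these values move to or above 0.

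The 3 accessory subunits that changed least were Ndufab1, Ndufs5 and Ndufa6. Ndufab1 was at 18.2, 15.2 and 14.2 CPM in Ctr, 20.2, 17.4 and 19.8 in ISO and 13.6, 14.1 and 20.1 in ISO/PE hearts, and the groups overlapped (0.00, SE 0.16, adjusted p = 0.988). These values are of its transcript with the highest count, which had 274 raw counts in ISO/PE male2. A shorter Ndufab1 transcript had 136, 119 and 103 raw counts in Ctr and 128, 124 and 112 in ISO/PE hearts, whose libraries were larger. That transcript was thus lower for its library size, and its fold change was not fitted. Ndufs5, in the intermembrane space, was at 23.7, 25.2 and 26.7 CPM in Ctr, 24.3, 20.3 and 22.1 in ISO and 21.0, 22.4 and 18.7 in ISO/PE hearts (-0.28, SE 0.11, adjusted p = 0.0472). Both have near-identical copies, and the pseudogene Ndufs5-ps, outside the name rule, had 7220 counts over the 9 hearts against 2501 for Ndufs5. Ndufa6, a subunit of the LYR family that holds an acyl carrier protein, was at 340, 287 and 341 CPM in Ctr, 259, 262 and 287 in ISO and 240, 271 and 263 in ISO/PE hearts (-0.33, SE 0.10, adjusted p = 0.0161). Its ISO and ISO/PE hearts overlapped.

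The remaining accessory subunits are given by module. In the N module, Ndufs6, Ndufa12, Ndufa2 and Ndufa7 fell by 0.76, 0.63, 0.57 and 0.56 on the log2 scale. For Ndufs6, the transcript with the highest count, which was used, is a non-coding RefSeq record. In the Q module, Ndufa9 and Ndufa5 fell by 0.76 and 0.71. In the proximal membrane arm, Ndufa8, Ndufa10, Ndufc1, Ndufc2 and Ndufa11 fell by 0.58, 0.52, 0.46, 0.44 and 0.36. In the distal membrane arm, all 10 subunits fell. Ndufb11 had the largest decrease there (0.72), then came Ndufb8 (0.64), Ndufb9 (0.63), Ndufb5 (0.59), Ndufb7 (0.58), Ndufb2 (0.58) and Ndufb10 (0.56), and Ndufb4, Ndufb3 and Ndufb6 fell by 0.43, 0.38 and 0.34. By module, the medians were -0.63 for the N module (10 of 11 lower), -0.71 for the Q module (5 of 5), -0.52 for the proximal (9 of 9) and -0.58 for the distal membrane arm (10 of 10).

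ISO vs. Ctr addressed beta-adrenergic stimulation alone. The subunits again had lower levels, with a smaller median, and again not when scaled to cardiomyocyte markers (0.04). At an adjusted p under 0.05, 15 of 35 fell, where 9.6% of all genes did, and 2 of 35 (Ndufa1 and Ndufb4) passed both thresholds, where 2.99% of all genes did. None rose, also not at an unadjusted p under 0.05 or by DESeq2 or limma-voom (15.2% of all genes rose). All 3 ISO hearts lay below all 3 Ctr hearts for 26 subunits, where 20.4% of all genes had that order. The median was -0.29 (all genes -0.01), and the median subunit was at 82.0% of Ctr. Of the 18 cardiomyocyte markers 7 fell and none rose (median -0.27), and scaled to them the median of all genes was 0.33.

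Among the core subunits, Ndufs1 (-0.59, SE 0.12, adjusted p = 0.00420), Ndufv1 (-0.45, SE 0.11, adjusted p = 0.0136) and Ndufs3 (-0.29, SE 0.10, adjusted p = 0.0426) were lower under ISO. Ndufs7, Ndufv2 and Ndufs8 were at -0.16, -0.13 and -0.10 and did not pass the test. Ndufa1 fell by 0.64 (SE 0.09, adjusted p = 4.38e-04). Ndufb4, of the distal membrane arm, was at 35.8, 30.1 and 38.03 CPM in Ctr, 24.4, 18.2 and 22.9 in ISO and 22.3, 27.7 and 27.0 in ISO/PE hearts. It fell by 0.66 (SE 0.14, adjusted p = 0.00453) under ISO, and its mean was higher in ISO/PE than in ISO hearts, with overlap and a difference that did not pass the test (0.23, SE 0.14, adjusted p = 0.271). Ndufb4 is one of the genes with a near-identical copy, and its counts are among the lowest. By arm, 7 of 11 subunits of the N module and 2 of 5 of the Q module were lower under ISO, 4 of 9 in the proximal and 2 of 10 in the distal membrane arm, with medians of -0.33, -0.29, -0.26 and -0.22.

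**Figure D4:**
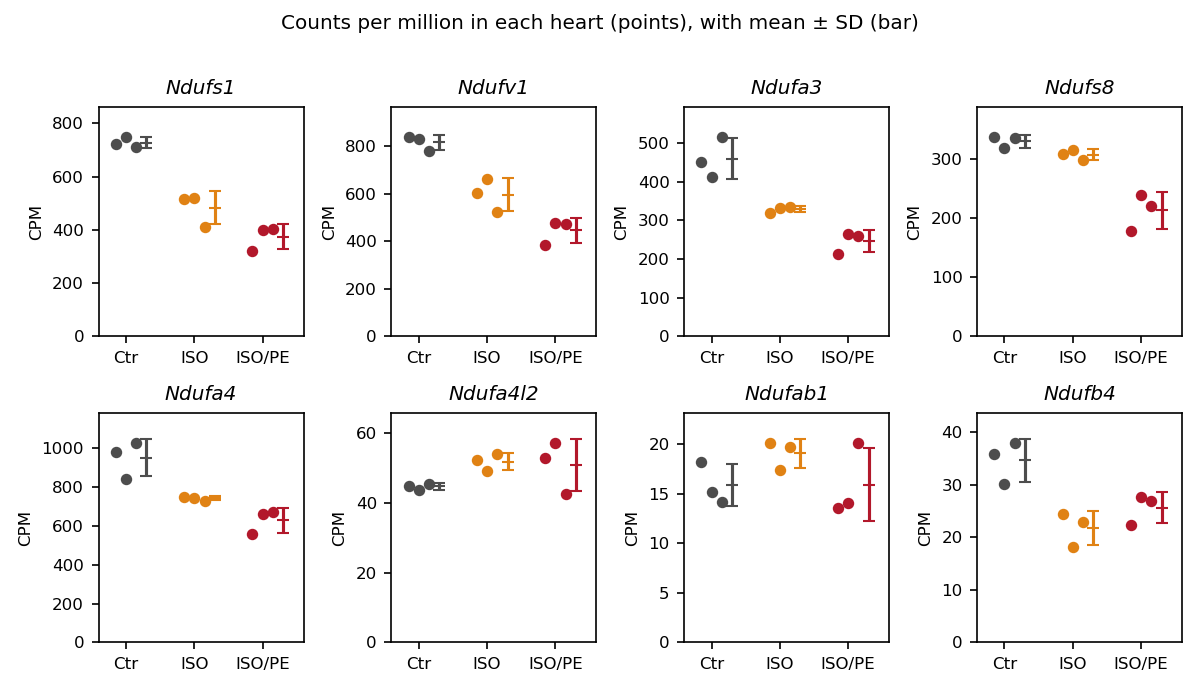
Normalised read count (y axis, CPM, from 0) in each heart (points) with mean ± SD (bars, n = 3) of 8 genes in the Ctr, ISO and ISO/PE groups. Ndufs1, Ndufv1 and Ndufa3 step down from group to group, Ndufs8 is lower mainly in ISO/PE hearts, and Ndufa4l2 and Ndufab1 overlap between Ctr and ISO/PE.

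ISO/PE vs. ISO addressed what phenylephrine added to isoprenaline. At an adjusted p under 0.05, 17 of 35 subunits were lower with phenylephrine, where 6.95% of all genes were, and 0 of 35 passed both thresholds, where 2.81% of all genes did. With no threshold on the fold, 27 had an unadjusted p under 0.05 in edgeR, and DESeq2 and limma-voom found 21 and 18 at an adjusted p under 0.05 and 0 past both thresholds. None was higher by any of the 3 tools, nor at an unadjusted p under 0.05 (7.46% of all genes were higher at an adjusted p under 0.05). All 3 ISO/PE hearts lay below all 3 ISO hearts for 26 subunits, where 16.3% of all genes had that order, and the median was -0.32 (all genes 0.00). Scaled to cardiomyocyte markers, of which 8 of 18 fell (median -0.36), the subunit median was 0.06 and that of all genes 0.39. The count of 17 depended on single hearts. It was 2 without ISO male1, 4 without ISO/PE female2, 5 without ISO female2 and 7 without Ctr female1. It was 10 without ISO male2, 11 without Ctr female2 or Ctr male1, 12 without ISO/PE male2 and 20 without ISO/PE male1. The median stayed between -0.42 and -0.24 over all 9 omissions.

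Ndufs8 differed most between the treatments (-0.53, SE 0.11, adjusted p = 0.00940), followed by Ndufv3 (-0.46, SE 0.10, adjusted p = 0.0127) and Ndufs3 (-0.44, SE 0.10, adjusted p = 0.0135). Ndufv1 and Ndufs7 were lower with phenylephrine as well (-0.42 and -0.39, adjusted p = 0.0322 and 0.0342). Ndufs1 and Ndufv2 were at -0.37 and -0.29 and did not pass the test (adjusted p = 0.0601 and 0.101). In the distal membrane arm Ndufb7, Ndufb2, Ndufb10, Ndufb6 and Ndufb8 were lower, at -0.43, -0.40, -0.40, -0.35 and -0.35. In the proximal arm Ndufa3, Ndufa11, Ndufa10 and Ndufa13 were, at -0.42, -0.42, -0.39 and -0.38, and in the peripheral arm Ndufa9, Ndufs4 and Ndufa7, at -0.43, -0.30 and -0.28. Ndufa11 and Ndufb6 were at 0.05 and 0.02 for ISO vs. Ctr, so for these 2 genes the difference between ISO/PE and Ctr was close to that between the treatments.

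Over the 3 groups, mean levels were ordered Ctr above ISO above ISO/PE for 31 of the 35 subunits, an order that 30.2% of all genes tested had. The exceptions were Ndufab1, Ndufa11, Ndufb4 and Ndufb6. The hearts within ISO/PE were not alike. ISO/PE female2 was the lowest of the 3 for 33 subunits and the lowest of all 9 hearts for 32, with a mean difference from Ctr of -0.79 on the log2 scale over the 35 subunits, beside -0.47 in ISO/PE male1 and -0.54 in male2. The 3 ISO hearts were nearly equal, at -0.29, -0.28 and -0.29. ISO/PE female2 also had the lowest summed level of cardiomyocyte markers (42401 CPM, beside 58898 and 53567), and the part of that in its subunit levels was not tested. Without this heart, 28 of 35 subunits were lower for ISO/PE vs. Ctr, 12 past both thresholds, with a median of -0.49. A test of whether the treatment effect differed between the sexes found 0 of 37 genes at an adjusted p under 0.05 for either treatment (edgeR, lowest adjusted p = 0.898 for ISO and 0.931 for ISO/PE), with 1 gene at an unadjusted p under 0.05 for each, in groups that hold 1 heart of a sex.

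Core and accessory subunits were compared within hearts. The mean difference from Ctr was -0.93, -0.56 and -0.62 for the core and -0.76, -0.45 and -0.52 for the accessory subunits in the 3 ISO/PE hearts. The core mean was thus lower by 0.16, 0.12 and 0.10, outside the range of the Ctr hearts, where core minus accessory was -0.01, 0.07 and -0.06. In the ISO hearts the difference was 0.04, 0.07 and -0.12 and overlapped with Ctr. The order was not the same in each module. In the N module, the ISO/PE hearts were at -0.98, -0.64 and -0.66 for the core subunits. The accessory subunits of that module were at -0.72, -0.46 and -0.49. In the Q module the order was reversed, with -0.88, -0.48 and -0.59 for the core subunits. Its 2 accessory subunits were lower, at -0.97, -0.58 and -0.67. By arm, the mean difference in the 3 ISO/PE hearts was -0.77, -0.49 and -0.53 over the 10 accessory subunits of the peripheral arm and -0.76, -0.43 and -0.51 over the 19 of the membrane arm. These are descriptions of lists, for which no test was made.

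The other respiratory complexes were also lower for ISO/PE vs. Ctr, and scaled to cardiomyocyte markers the medians of complexes II, III and IV and ATP synthase were -0.03, 0.15, 0.07 and 0.12. Where 22.7% of all genes fell, all members listed were lower for complex II (4 genes, median -0.75), complex III (9 genes, -0.56), complex IV (11 genes, -0.65) and ATP synthase (14 genes, -0.60), and 12 genes of the mitochondrial outer membrane had a median of -0.20, with 6 lower. For ISO vs. Ctr, 2 of 4, 1 of 9, 4 of 11 and 6 of 14 genes of complexes II, III and IV and ATP synthase were lower, where 9.6% of all genes were, so that the count of complex III was near the share of all genes. No test of a difference between the complexes was made.

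**Figure D5:**
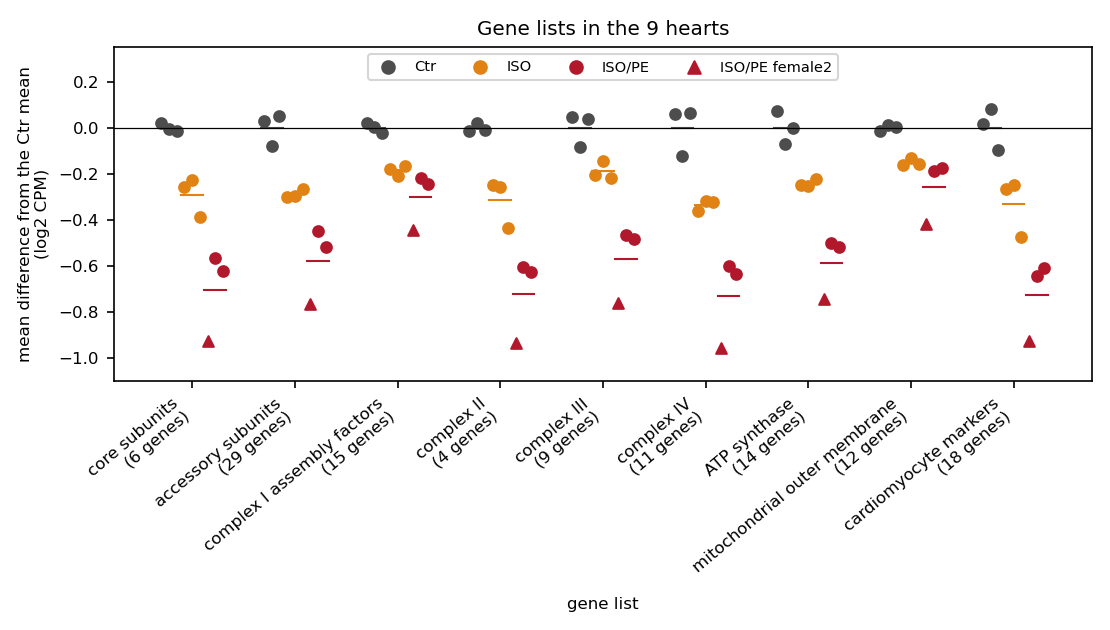
Mean difference from the Ctr mean (y axis, log2 CPM) over the genes of each list (x axis, number of genes in brackets) in each heart (points; triangle, ISO/PE female2) with group means (lines). The points of the ISO/PE hearts lie between -0.93 and -0.60 for complex II, between -0.44 and -0.22 for the assembly factors and between -0.42 and -0.18 for the outer membrane genes. Scaled to cardiomyocyte markers, the subunit median for ISO/PE vs. Ctr is 0.13.

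Assembly factors of complex I, which build the complex without staying in it, had a median of -0.36 for ISO/PE vs. Ctr, and 0.37 when scaled to cardiomyocyte markers. In that comparison 8 of 15 fell and none rose, where 22.7% of all genes fell. For ISO vs. Ctr 3 of 15 fell, where 9.6% of all genes did (median of the list -0.15). For ISO/PE vs. ISO it was 1 of 15 (Foxred1, median of the list -0.11), near the 6.95% of all genes. Ecsit, a factor of the early membrane arm, fell by 0.61 (SE 0.08, adjusted p = 8.11e-05) and Ndufaf8 by 0.56 (SE 0.11, adjusted p = 0.00194) under ISO/PE. Foxred1 fell by 0.55, Nubpl, which delivers iron-sulfur clusters, by 0.50, and Ndufaf4, Ndufaf6, Acad9 and Tmem186 by 0.45, 0.38, 0.38 and 0.36. Ndufaf2, the paralogue of the subunit Ndufa12, was at -0.03 (adjusted p = 0.878), beside -0.63 for Ndufa12 itself.

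Transcription factors and coactivators that are known to drive oxidative genes were uneven. Of 12, 8 were lower for ISO/PE vs. Ctr, where 22.7% of all genes were. Under ISO 2 of 12 were lower (9.6% of all genes), and 1 of 12 was lower with phenylephrine than without it, near the 6.95% of all genes. Scaled to cardiomyocyte markers, the median of these 12 was 0.32 for ISO/PE vs. Ctr, against -0.40 without that scaling. Perm1, a muscle coactivator regulator, fell by 1.02 (SE 0.18, adjusted p = 7.13e-04), the estrogen-related receptors Esrrb, Esrrg and Esrra by 0.90, 0.64 and 0.29, Ppara, the receptor that controls fatty acid oxidation, by 0.86, and Ppargc1b, Gabpa and Tfam by 0.51, 0.42 and 0.37. The coactivator Ppargc1a was at 0.08 (adjusted p = 0.850), and Nrf1, Gabpb1 and Yy1 were at 0.18, 0.00 and 0.03 without passing the test. The pair Gabpa and Esrrb were also lower under ISO (-0.27 and -0.56), and Ppara differed between the treatments (-0.62, SE 0.18, adjusted p = 0.0424).

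Of the 2 genes that carry the name outside the 35 subunits, Ndufa4 fell in both comparisons with Ctr and Ndufa4l2 passed the test in neither. Ndufa4, kept with complex IV, was at 982, 844 and 1029 CPM in Ctr, 750, 745 and 731 in ISO and 557, 659 and 671 in ISO/PE hearts. It fell by 0.60 for ISO/PE vs. Ctr (SE 0.11, adjusted p = 8.59e-04) and by 0.36 for ISO vs. Ctr (SE 0.11, adjusted p = 0.0298). Ndufa4l2, its paralogue and a known target of the hypoxia-inducible factor, was at 44.9, 43.6 and 45.4 CPM in Ctr, 52.2, 49.1 and 53.9 in ISO and 52.7, 57.1 and 42.6 in ISO/PE hearts. All ISO hearts were above Ctr and the ISO/PE hearts overlapped with both, and neither comparison passed the test (0.21, adjusted p = 0.160, and 0.19, adjusted p = 0.159). Per kilobase, Ctr hearts held 1938 ± 196 RPKM of Ndufa4 and 46.6 ± 0.94 RPKM of Ndufa4l2 (SD, n = 3).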

How the data were processed

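RNA of 9 ventricles was sequenced, 3 per group. The authors aligned reads to mm10 with STAR and counted them per RefSeq transcript over exons without strand (analyzeRepeats.pl in the paper, featureCounts in the submitters' processing notes; versions: not given in the sources used here). Deposited counts are raw reads, and transcripts with 20 or fewer counts in a table are not in it. The authors also deposited signal columns (counts divided by 1 factor per sample), RPKM values, log2 fold changes, p-values and scores (standard errors and statistics of DESeq2), of which none was used. Columns of the authors' comparisons hold their DESeq2 tests.

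The pair of tables was joined on 29889 shared transcripts (544 and 110 were in 1 table alone), with ISO counts equal in both. One table is named as a comparison of ISO/PE with control, but its columns are ISO/PE and ISO hearts, and columns were assigned by their headers. The transcript with the highest count was kept for each of 15149 genes. The filterByExpr function (minimum count 10, total 15) left 14426, with all 37 genes described among them. These were tested in 1 fit over 9 hearts with edgeR 4.0.16 in R 4.3.3 (TMM, glmQLFTest, Benjamini-Hochberg), and called at an adjusted p under 0.05 with or without an absolute log2 fold change above 0.6. Fold changes and SE are those of the fit, CPM use TMM library sizes, and RPKM were recomputed from these with the deposited lengths. The test was checked on simulated data. Nothing in the labels says how the hearts were batched.

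Alternatives were DESeq2 1.42.0, limma-voom (limma 3.58.1), size factors of DESeq2, total counts, scaling to cardiomyocyte markers, no filter, the longest transcript, only 2 groups in the fit, sex or the replicate label as a term, and leaving out each heart. The name rule found 38 genes, of which 1 is not reported here and enters no count or median of the subunits, and the others are all named. Values in every heart are given for the core subunits, Ndufa4, Ndufa4l2, the 5 accessory subunits with the largest and the 3 with the smallest change for ISO/PE vs. Ctr, and those past both thresholds in another comparison. Members, lists and promoter motifs were chosen with earlier results of these data known. Copies were found with blastn against GENCODE M21 transcripts. The replicate labels do not pair the hearts (correlation of deviations from -0.12 to 0.18 over 7 same-labelled pairs, with no label naming a shared litter or day).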

Additional observations from a re-analysis of the deposited data

How the results depend on the processing

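For ISO/PE vs. Ctr, 16 of 35 subunits were lower past both thresholds, for ISO vs. Ctr it was 2 and between the treatments 0, with medians of -0.58, -0.29 and -0.32. Without the threshold on the fold the counts were 34, 15 and 17. Scaling by total counts, which moved the median of all genes to 0.10, 0.05 and 0.05, gave 11 for ISO/PE vs. Ctr, and 1 with a median of -0.23 for ISO vs. Ctr. Scaling to cardiomyocyte markers gave 0 for both comparisons with Ctr and turned the medians to 0.13, 0.0446 and 0.0574. Leaving out the 8 subunits with near-identical copies, an alternative chosen after seeing the data, gave 1 of 27 for ISO vs. Ctr. Leaving out each heart gave 12 to 23, 2 to 2 and 0 to 1 past both thresholds, and medians of -0.67 to -0.49, -0.34 to -0.27 and -0.42 to -0.24. The lowest count for ISO/PE vs. Ctr came without ISO/PE female2 and the highest without ISO/PE male1. With the replicate block, which does not pair hearts of 1 animal, the counts were 18, 2 and 0, and 28, 7 and 2 at an adjusted p under 0.05. With sex as a term they were 22, 3 and 0.

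Among differences with an adjusted p under 0.05 in the first place, direction changed under the scaling to cardiomyocyte markers and under no other alternative run. Differences that had not passed the test (those of Ndufab1, Ndufa11, Ndufb6 and Ndufa4l2 under other alternatives, and further ones under this scaling) also changed sign and are not listed. For ISO/PE vs. Ctr the values became Ndufa10 0.19, Ndufa11 0.35, Ndufa12 0.0853, Ndufa2 0.15, Ndufa4 0.12, Ndufa5 0.0051, Ndufa6 0.39, Ndufa7 0.16, Ndufa8 0.13, Ndufb10 0.15, Ndufb11 0.0012, Ndufb2 0.13, Ndufb3 0.33, Ndufb4 0.28, Ndufb5 0.12, Ndufb6 0.37, Ndufb7 0.13, Ndufb8 0.0797, Ndufb9 0.0785, Ndufc1 0.24, Ndufc2 0.28, Ndufs5 0.45, Ndufs7 0.16, Ndufs8 0.0801 and Ndufv2 0.28. They became Ndufa7 0.0447, Ndufc2 0.0189 and Ndufs3 0.04 in the comparison of ISO with Ctr, and Ndufa13 0.0171, Ndufa7 0.12, Ndufb6 0.0304, Ndufb8 0.0351 and Ndufs4 0.085 between the treatments. With 3 hearts per group, differences that are small beside the spread between hearts can be missed by the test.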
